A study of Mus musculus with 5 samples.

Results

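The 22255 regions of trimethylated lysine 4 on histone H3 (H3K4me3) in dendritic cells kept in diluent were taken as every row of the authors' deposited list of that library against IgG. They were 22255 of 60037 regions in the 4 lists of the series. Chromatin immunoprecipitation sequencing (ChIP-seq), which pulls down chromatin fragments with an antibody and sequences their DNA, had been done on bone marrow cells of C57BL/6 female mice aged 10 weeks. The marrow grew for 7 days in GM-CSF (10 ng/mL) plus IL-4 (10 ng/mL). Cells bearing CD11c, 95% pure after selection per the labels, were then kept for 12 hours with diluent or SAHA. SAHA (vorinostat) inhibits histone deacetylases, and its dose is labelled 500 nm. The H3K4me3 library and the matched IgG library used as its control both came from diluent cells, so the cells had been in culture with cytokines and then in diluent, and no library came from cells taken straight from an animal. The SAHA H3K4me3 library and the STAT3 libraries serve below only to set the diluent regions beside other lists. Every group had 1 library, nothing in the labels says how many mice or cultures a library pooled, and there is no replicate error for any value.

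Each region was joined by chromosome, start and end to the table of regions called in the H3K4me3 library alone. That table gave the tags of a region (aligned reads, with no more than 2 kept at a position), its fold enrichment over the local background and its summit. Of the 22255 regions, 20244 were joined and 2011 had no tag count. The H3K4me3 library had 24364949 reads and 22420200 filtered tags, and 62.1% of those tags lay in its 21342 regions. The IgG library had 25882793 reads and 18925827 filtered tags, and 0.350% of those tags lay in its 606 regions. Of the H3K4me3 regions, 23 (0.103%, exact 95% interval 0.0655% to 0.155%) overlapped an IgG region by at least 1 bp. All intervals here cover counting error only.

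H3K4me3 is written at promoters by the SET1 and MLL enzymes and erased by KDM5 demethylases. It marks the starts of genes that are transcribed or ready for transcription. Its writers are drawn to unmethylated CpG islands through CXXC domain proteins, so that promoters of housekeeping genes usually carry it in every cell type, whereas promoters poor in CpG usually carry it only where a cell-type factor has opened them. Dendritic cells take up, process and present antigen on MHC molecules, sense microbes through Toll-like receptors and prime T cells through costimulatory ligands and cytokines.

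The sequences of 8 promoters show the range that the results below turn on. They were chosen after their values were seen, they are the RefSeq promoters of build GRCm38.p6 (250 bases before to 50 bases after the annotated start), and capitals mark every CG. Rel and Il4ra had a region at the start and promoters rich in CpG. Mpeg1, H2-Eb1 and Zbtb46 had a region at the start and at most 2 CG in these bases. The regions were found at the mm9 starts of the lists, and whether these are the RefSeq starts was not tested. Pax5 and Olig2 had no region at the start and promoters rich in CpG, and Cd3d had neither.
Rel (chr11:23770920-23771219, minus strand): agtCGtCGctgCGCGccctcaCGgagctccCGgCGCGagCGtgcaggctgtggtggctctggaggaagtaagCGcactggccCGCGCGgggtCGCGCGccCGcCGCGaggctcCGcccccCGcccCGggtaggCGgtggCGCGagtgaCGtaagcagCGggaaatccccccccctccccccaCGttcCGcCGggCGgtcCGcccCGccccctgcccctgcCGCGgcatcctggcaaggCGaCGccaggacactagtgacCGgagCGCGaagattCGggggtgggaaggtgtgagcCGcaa
Il4ra (chr7:125552021-125552320, plus strand): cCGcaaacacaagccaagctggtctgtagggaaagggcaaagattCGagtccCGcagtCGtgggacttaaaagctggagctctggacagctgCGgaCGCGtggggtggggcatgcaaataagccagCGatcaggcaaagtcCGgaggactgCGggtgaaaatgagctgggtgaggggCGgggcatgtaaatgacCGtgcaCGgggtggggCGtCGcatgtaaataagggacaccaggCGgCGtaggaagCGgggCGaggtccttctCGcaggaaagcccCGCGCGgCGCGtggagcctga
Mpeg1 (chr19:12460520-12460819, plus strand): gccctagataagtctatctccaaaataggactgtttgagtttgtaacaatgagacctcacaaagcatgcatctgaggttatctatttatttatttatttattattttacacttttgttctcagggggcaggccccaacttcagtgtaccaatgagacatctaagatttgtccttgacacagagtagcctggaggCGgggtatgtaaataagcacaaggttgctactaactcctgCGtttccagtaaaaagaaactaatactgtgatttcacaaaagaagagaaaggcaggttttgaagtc
H2-Eb1 (chr17:34305617-34305916, plus strand): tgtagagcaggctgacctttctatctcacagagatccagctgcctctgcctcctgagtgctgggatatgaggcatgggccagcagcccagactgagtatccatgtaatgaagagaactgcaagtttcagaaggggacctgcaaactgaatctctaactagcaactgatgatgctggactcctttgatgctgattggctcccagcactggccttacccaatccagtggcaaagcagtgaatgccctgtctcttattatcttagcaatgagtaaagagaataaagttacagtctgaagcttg
Zbtb46 (chr2:181424339-181424638, minus strand): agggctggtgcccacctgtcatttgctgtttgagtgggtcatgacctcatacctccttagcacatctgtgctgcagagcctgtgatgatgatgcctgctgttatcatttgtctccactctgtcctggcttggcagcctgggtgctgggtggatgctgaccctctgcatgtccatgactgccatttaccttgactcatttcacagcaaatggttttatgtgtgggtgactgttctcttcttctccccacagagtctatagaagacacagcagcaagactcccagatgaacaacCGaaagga
Pax5 (chr4:44710645-44710944, minus strand): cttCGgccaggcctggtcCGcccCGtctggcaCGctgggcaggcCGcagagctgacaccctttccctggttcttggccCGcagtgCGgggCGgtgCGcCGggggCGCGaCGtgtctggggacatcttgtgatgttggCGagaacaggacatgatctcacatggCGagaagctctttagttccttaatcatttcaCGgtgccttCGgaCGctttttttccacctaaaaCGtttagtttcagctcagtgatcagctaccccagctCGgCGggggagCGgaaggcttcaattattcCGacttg
Olig2 (chr16:91225300-91225599, plus strand): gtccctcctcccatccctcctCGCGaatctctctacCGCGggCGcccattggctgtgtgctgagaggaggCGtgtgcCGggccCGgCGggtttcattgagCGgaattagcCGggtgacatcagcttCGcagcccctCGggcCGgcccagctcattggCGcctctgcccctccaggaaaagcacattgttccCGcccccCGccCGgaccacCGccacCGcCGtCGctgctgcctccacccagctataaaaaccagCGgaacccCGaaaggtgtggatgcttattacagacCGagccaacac
Cd3d (chr9:44981536-44981835, plus strand): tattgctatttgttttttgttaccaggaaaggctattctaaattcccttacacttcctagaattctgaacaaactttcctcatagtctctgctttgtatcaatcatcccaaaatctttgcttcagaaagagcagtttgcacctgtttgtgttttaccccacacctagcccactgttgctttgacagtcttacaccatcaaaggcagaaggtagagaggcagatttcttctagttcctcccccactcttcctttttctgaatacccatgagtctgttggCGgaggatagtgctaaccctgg
Rel, an NF-kB subunit, had 42 CG in these 300 bases, and its start lay in a region of 9111 bp with 4766 tags. H2-Eb1, the beta chain of the MHC class II molecule I-E, had 0 CG and a region of 6863 bp with 2910 tags. Zbtb46, a transcription factor used as a marker of classical dendritic cells, had 1 CG and a region of 4070 bp with 1392 tags. The bases printed for Zbtb46 may not be the promoter under that region, since the 2 starts were not matched. Pax5, the master factor of B cells, had 23 CG, and Olig2, a factor of oligodendrocytes, had 25 CG, and no H3K4me3 region lay within 1 kb of either start.

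The regions covered 44.75 Mb and fell into narrow, weak regions and wide, strong ones. Width had a median of 1703 bp, with quartiles of 977.5 and 2616 bp and a maximum of 14287 bp. Tags had a median of 390.5, with quartiles of 73 and 1089 and a range of 16 to 7779. The median rose with width through all classes that held tag counts, with 39 tags at 501 to 1000 bp, 172 at 1001 to 2000 bp, 941 at 2001 to 3000 bp and 3919 at 8001 to 10000 bp. From 501 bp up, tags per kb rose too, with a median of 50.2 at 501 to 1000 bp and 462.3 at 8001 to 10000 bp. Median fold enrichment went the other way among the wide regions, with 13.93 at 1001 to 2000 bp and 4.39 at 8001 to 10000 bp. The local background of the fold is taken from up to 10000 bp around a region, per the file header. The deposited score was 3100 in 10123 regions and above it, up to 3233, in 76, so it could not order the strongest regions, and tags and width were used.

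The tag ranking and the width ranking did not see the same regions. None of the 32 regions over 10 kb had a tag count or overlapped a single-library region, whereas 98.9% of the regions of 3001 to 4000 bp had a count. The 2011 regions with no tag count overlapped no region of the single-library table and had a median width of 882 bp, so they were mostly narrow, with the widest regions among them. The sources used here do not say how the list against IgG was called, and the reason for the missing counts was not tested.

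**Figure D1:**
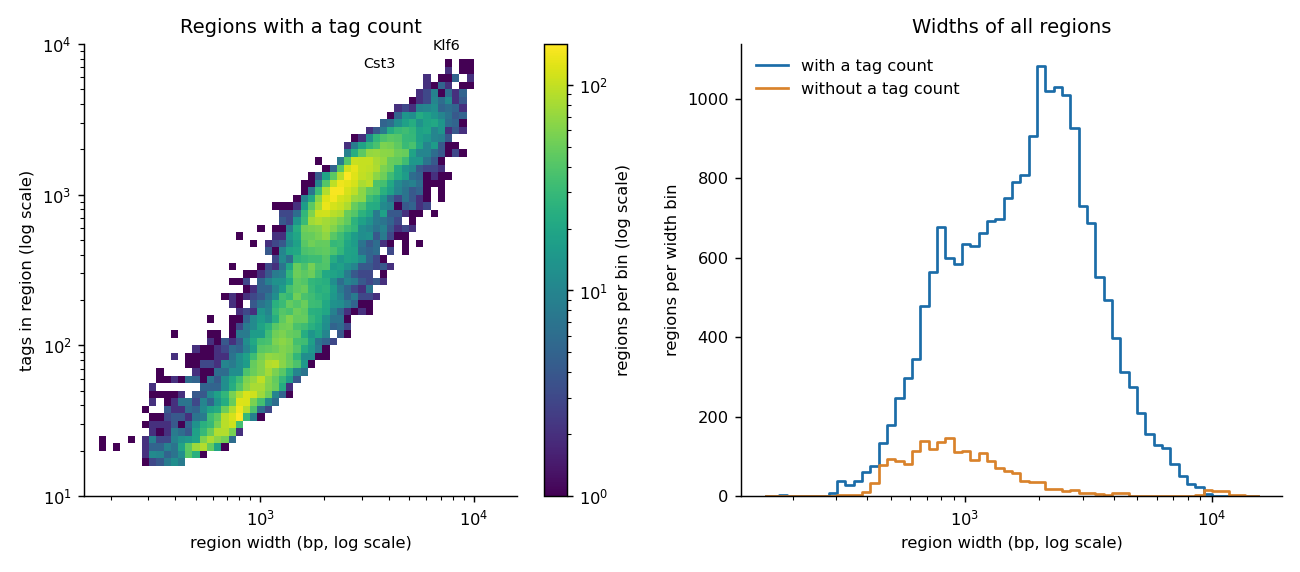
Left, tags against width for the 20244 regions with a tag count, both on log scales, coloured by the number of regions per bin. Right, number of regions by width for regions with and without a tag count; the 32 regions over 10 kb all lie on the line without one.

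Regions lay mostly over transcription starts and reached further into genes than ahead of them. Of the 22255 regions, 12035 (54.1%, exact 95% interval 53.4% to 54.7%) overlapped the start the list assigned to them, and 57.2% lay within 1 kb of it. Beyond 5 kb of the assigned start lay 33.9%. Regions over a start had a median of 2427 bp and 943 tags, against 1023 bp and 70 tags for regions 5 to 50 kb away and 895 bp and 54 tags for regions over 50 kb away. Around the start, the median reach was 906 bp upstream and 1425 bp downstream. A position 1000 bp downstream was covered by 79.2% of the start regions, and a position 1000 bp upstream by 42.1%. Of the 12361 summits of regions within 1 kb of a start, 76.2% lay downstream of it, and the median summit lay 195 bp downstream, with quartiles of 47 and 405 bp. A smaller group of summits lay upstream, with a dip between the groups just upstream of the start.

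**Figure D2:**
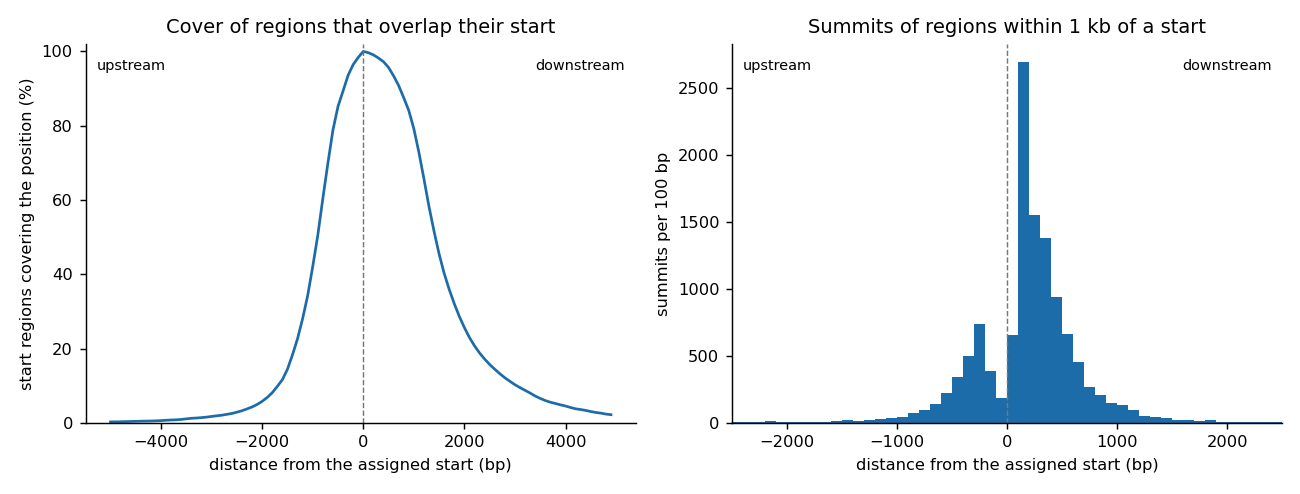
Left, percent of the regions overlapping their assigned start that cover each position from 5 kb upstream to 5 kb downstream, in the direction of transcription. Right, number of summits per 100 bp for regions within 1 kb of a start; the tallest bars lie just downstream of 0, with a lower group upstream and a dip between them just upstream of 0.

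The 20 regions with most tags, among those assigned to named genes, all overlapped a start. Klf6, a zinc finger transcription factor, led with 7779 tags (counting interval 7607 to 7954) in a region of 7485 bp at chr13:5860720-5868204 (mm9, as are all region positions here). Cytip, which loosens leukocyte adhesion, had 7739 tags over 9358 bp, so its count lay within the counting interval of Klf6. Tnfaip3, the ubiquitin-editing enzyme A20 that restrains NF-kB, had 7360 tags over 9137 bp at chr10:18726867-18736003. These 3 regions stood above the rest, the next named region being that of Btg1, an inhibitor of proliferation, with 6635 tags.

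Mcl1, an inhibitor of apoptosis, had 6207 tags. Bcl2a1b and Bcl2a1d, copies of the apoptosis inhibitor A1, had 6590 and 5685 tags, and since the copies are nearly identical, reads may have been placed at either. Zfp36l1 and Zfp36, which bind AU-rich elements and send mRNA to decay, had 5778 and 5544 tags over 9312 and 9378 bp. Dusp5, a phosphatase of ERK kinases, had 5455 tags, and Pim1, a kinase induced by cytokines, had 5696.

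Cst3, the protease inhibitor cystatin C, had 6205 tags in only 5894 bp, which gave it 1053 tags per kb, the highest density of all 20244 joined regions. Clec2d, a lectin seen by receptors of natural killer cells, had 6038 tags over 6130 bp. Cd274 (PD-L1), a ligand that inhibits T cells, had 5740 tags over 7813 bp at chr19:29439955-29447767. Mpeg1, the pore-forming perforin-2 of phagocytes, had 5549 tags. Trim25, a ubiquitin ligase of the RIG-I pathway, had 5783 tags, and Il21r, the receptor of IL-21, had 5479. Actb, beta-actin, had 6630 tags, Ppp1r15b, a regulatory subunit of the eIF2 alpha phosphatase, had 5656, and a region assigned to the microRNA gene Mir1932 had 5658. B2m, the light chain of MHC class I, also belongs here: its start lay in a region of 7620 bp with 6708 tags that the list assigned to an overlapping clone name. Each of the 20 regions also overlapped a region of the SAHA library, and the 10 of them whose SAHA region had a tag count ranked no lower than 21 in that library.

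By width, the named genes were different ones. The 20 widest regions assigned to named genes were 10420 to 13431 bp wide, all covered their assigned start, and shared no region with the 20 highest in tags, since none of them had a count. Znfx1, an antiviral RNA-binding protein of the helicase family, had the widest region assigned to a named gene, 13431 bp at chr2:166878397-166891827. Hif1a, the oxygen-sensing transcription factor, had 12549 bp, and Traf1, an adaptor of TNF receptors, had 11936 bp. Csf2rb, the shared beta chain of the receptors for GM-CSF, IL-3 and IL-5, had 10459 bp, and GM-CSF was in the culture medium. Bcl6, a repressor needed for some dendritic cell subsets, had 11106 bp. The region of Brd2, a reader of acetylated histones, was 11800 bp wide and also covered the start of H2-DMa, which loads peptides onto MHC class II.

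The widest regions included those of 4 lysosomal genes. Ctsb (cathepsin B, a protease) had 10980 bp, Psap (prosaposin, which activates lipid hydrolases) 11310 bp, Npc2 (which exports cholesterol) 10998 bp and Atp6v0c (a subunit of the proton pump) 11374 bp. Setd1b, itself an H3K4 methyltransferase, had 11105 bp. Further genes among the 20 were Cacnb3 (a calcium channel subunit), Pfn1 (profilin, an actin-binding protein), Ccnl1 (a cyclin of RNA processing), Nfe2l2 (the oxidative stress factor NRF2), Edem1 (a lectin of the degradation of misfolded proteins), Tnrc18, H3f3b (histone H3.3) and Mx1 (an interferon-induced GTPase).

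At the other end, the 10 named regions with fewest tags held 16 or 17 tags over 299 to 435 bp. Only that of Dcbld1, 78 bp from its start, lay near one. The others, assigned to Wif1, Ppm1a, Gmds, Bmp10, Odz4, Col12a1, Vma21, Zp3r and Slc26a3, lay 4161 to 297041 bp from theirs.

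To ask which genes were marked, each of 21887 protein-coding RefSeq genes was followed through the starts that the 4 lists name. A gene was called marked when a diluent H3K4me3 region lay within 1 kb of such a start. By that rule 11493 genes were marked, 52.5% of all and 82% of the 14017 genes with a named start. A start is named only where a region of any of the 4 lists was assigned to it, and the diluent H3K4me3 list is among these. Naming thus depends in part on the mark being counted, which raises the 82%. A further 2524 genes had a named start and no region there, and are called unmarked, although for 193 of these a marked gene began within 5 kb. Such a gene was named through a region more than 1 kb from its start or through a region of another list. For 1069 genes no list names a start, but a marked gene began within 5 kb, so that their own start may lie under the neighbour's region. For the remaining 6801 genes the lists name no start at all, and their state is undetermined here; they are given as "not named". Marked genes had a median width of 2484 bp and a median of 989 tags. Of the marked genes, 98.8% were also marked in the SAHA library. A mark present in a few cells and a weaker mark in all cells cannot be told apart in these bulk libraries. The list counts that follow are to be read against 52.5% and 82%, and the lists were chosen with earlier results of these data known.

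The label of the cells was set against markers of dendritic cells. Of 25 genes of dendritic cell identity, 22 were marked (88.0%, exact 95% interval 68.8% to 97.5%) and 2 were not named, beside 52.5% of all genes and 82% of genes with a named start. Their median width of 5432 bp stands beside 2484 bp over all marked genes. The 18 with a tag count had a median of 1622 tags. The 4 marked plasmacytoid dendritic cell genes had medians of 4776 bp and 2214 tags. The 10 marked macrophage and monocyte genes had medians of 3840 bp and 1538 tags. Irf8, a factor of dendritic cell and monocyte development, had 9571 bp, and Id2, an inhibitor of E proteins needed for dendritic cells, had 9551 bp. Spi1, the myeloid master factor PU.1, had 3919 tags over 6566 bp, and Il4ra, the receptor of the IL-4 in the medium, had 4488 tags over 6677 bp. Irf4, which works in IL-4-driven dendritic cells, had 1981 tags over 5758 bp. Relb, an NF-kB subunit of dendritic cells, had 1813 tags, and Batf3, needed for the cross-presenting subset, had 1071.

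Several surface markers were much weaker than these factors. Itgax, which encodes the CD11c used for sorting, had 192 tags over 2052 bp. Flt3, the receptor of a dendritic cell growth factor, had 320 tags, Clec9a, a receptor for dead cells on the cross-presenting subset, had 89 and Clec10a, a lectin for galactose, had 97. Mgl2 was unmarked, and Cd209a (DC-SIGN family) and Xcr1 (a chemokine receptor of cross-presenting cells) were not named. Of 9 plasmacytoid dendritic cell genes 4 were marked, namely Runx2 with 3097 tags, Tcf4 (E2-2) with 1332, the interferon-induced Bst2 with 3132 and Pacsin1 with 172. Spib, Ccr9 and Klra17 were unmarked, and Siglech and Ly6d were not named.

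Macrophage and monocyte genes were marked in 10 of 17 cases (58.8%). Cd68, a lysosomal glycoprotein, had 2466 tags, Csf1r, the receptor of M-CSF, 2055, Cd14, a co-receptor for LPS, 1743, Fcgr1, a high-affinity receptor for IgG, 1607 and Mertk, a receptor for dying cells, 1468. The region at Cd68 is the one the list assigns to Mir1934. Ccr2, Cd163, Cx3cr1 and Vsig4 were unmarked, Marco and Timd4 were not named, and Cebpb lay beside a marked start. Whether cells with macrophage chromatin were a separate share of the culture was not tested. Of 9 blood progenitor genes 7 were marked, with Meis1 at 1317 tags over 7301 bp, Procr at 1403 tags, Myb at 819, Kit at 625 and Cd34 at 56.

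Granulocyte, mast cell, B cell, T cell and natural killer cell genes were mostly unmarked or not named, or carried a thin region. Granulocyte and mast cell genes had 2 of 19 marked (10.5%), S100a8 with 78 tags and Cebpe with 64, and Elane, Prtn3, Cpa3 and Ms4a2 were unmarked. The other 13 were not named, so their state is undetermined. No B cell gene of 13 was marked (exact 95% interval up to 24.7%): Cd79b, Cr2, Ebf1 and Pax5 were among those unmarked, Rag2 and Vpreb1 lay beside a marked start and 6 were not named. T cell genes had 5 of 23 marked (21.7%), 10 unmarked and 8 not named. Lck, the kinase of the T cell receptor, had 744 tags, Gata3, a factor of helper cells, 573, Tcf7 163, Tbx21 39 and Cd28, the receptor of costimulation on T cells, 19. Cd3d, Cd2, Lat and Zap70 were unmarked. Natural killer cell genes had 2 of 9 marked, Klrk1 with 151 tags and Klrd1 with 23, and Eomes and Klrb1c were unmarked. The other 5 were not named. Erythroid and megakaryocyte genes had 6 of 14 marked (42.9%, exact 95% interval 17.7% to 71.1%), among them Tal1 with 1539 tags, Klf1 with 517 and Pf4 with 255. This interval and that of natural killer cell genes hold the 52.5% of all genes. Of these 14, only 1 was unmarked and 1 lay beside a marked start, and 6 were not named, Gata1, Alas2 and Hba-a1 among them. With the start itself overlapped, 3 of these 14 were marked. With regions at the saturated score alone, the counts were 2 for erythroid and megakaryocyte genes, 2 for T cell genes and 0 each for granulocyte and natural killer cell genes.

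Genes of other tissues were marked in 0 to 3 cases per list, but many could not be scored. Not named were 7 muscle, 7 liver, 6 neural, 5 epithelial, 2 fibroblast or endothelial and 7 germline genes. No muscle gene of 11 (Acta1, Actn2, Tnnt2 and Ttn unmarked) and no liver gene of 11 (Apoa1, Cyp3a11 and Ttr among those unmarked) was marked. Neural genes had 3 of 14 marked, Neurog2 with 132 tags, Tubb3 with 50 and Nes with 32, and Gfap, Neurod1, Olig2 and Snap25 were unmarked. Epithelial genes had 3 of 12, Cdh1 (E-cadherin, which some dendritic cells also make) with 672 tags, Muc1 with 225 and Epcam with 128. Fibroblast and endothelial genes had 3 of 12, Kdr with 1120 tags over 5018 bp, Vwf with 432 and Pdgfra with 77, and Cdh5, Col1a1, Col3a1 and Pecam1 were unmarked. Germline genes had 2 of 13, Dazl with 223 tags and Dppa3 with 150. At the saturated score alone 1 epithelial and 1 fibroblast or endothelial gene counted and no neural or germline gene, and with 5 kb on each side of the start 6 neural genes did.

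Antigen presentation genes carried wide regions. All 14 MHC class II pathway genes were marked, with a median of 4609 bp. Cd74, the invariant chain, had 4429 tags over 5602 bp, Ctss, the protease that trims it, 3216, H2-Eb1 2910, H2-Aa 2571 and H2-Ab1 2570. Lgmn, an endosomal protease, had 2500 tags, and Ciita, the master activator of class II genes, had 825 over 4108 bp. The class II modulator H2-Ob had the thinnest region, 65 tags over 1106 bp, and H2-Oa had 378. Of 17 MHC class I genes 15 were marked, and the other two, Nlrc5 and Tapbp, lay beside a marked start. B2m had the most tags. Tap1 and Psmb9, a peptide transporter subunit and an immunoproteasome subunit that face away from a common promoter, shared a region with 4954 tags over 7303 bp. Psme2, a proteasome activator, had 4484 tags, and the heavy chains H2-K1 and H2-D1 had 2645 and 2581, where related copies may share reads.

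Costimulatory and maturation genes were marked in 17 of 18 cases, with a median of 4469 bp. Cd274 led with 5740 tags. Fscn1, an actin bundler of mature dendritic cells, had 4779 tags over 9129 bp, Cd80, a ligand of CD28, 4103, Ccr7, the receptor that guides cells to lymph nodes, 3895, Cd44 3197 and Icam1, an adhesion molecule, 3051. Cd86, the other CD28 ligand, had 1056 tags and Cd40 had 2144. Pdcd1lg2 (PD-L2), which lies on the same chromosome as Cd274, had only 67 tags over 658 bp, Slamf1 had 57 and Cd70 124, and Tnfsf18 was unmarked.

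Every one of 27 genes of Toll-like receptor signalling and all 24 JAK-STAT genes were marked. After Tnfaip3, the strongest TLR signalling genes were Irf5, an inflammatory transcription factor, with 4789 tags, Rel with 4766, Nfkbia (the NF-kB inhibitor IkB alpha) with 4456, Nfkb2 with 3427 and the adaptor Myd88 with 3020. The lowest was the kinase gene Irak1 with 530 tags. Jak2, a kinase of the GM-CSF receptor, had 5031 tags over 6155 bp, the feedback inhibitor Socs2 3743 over 8665 bp, Stat2 3107, Stat3 2581 and Socs1 2565. The median widths of these lists were 3225 bp for TLR signalling and 3783 bp for JAK-STAT. Of the 12 Toll-like receptor genes 11 were marked. Tlr2 had 1647 tags, Tlr4, the receptor of LPS, 1587, Tlr9 813, Tlr8 790, Tlr13 778 and Tlr1 759, whereas Tlr5, the flagellin receptor, had 88 and Tlr11 was unmarked.

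Interferon-stimulated genes were marked in all 16 cases, although no interferon is named in the labels, with a median width of 4846 bp (Mx1 and Mx2 are not protein-coding genes in the RefSeq table and were not counted). Usp18, which removes ISG15 from proteins, had 4998 tags over 8121 bp, Ifih1, a sensor of viral RNA, 3847, Ifit1 3191, Stat2 3107 and Irf7 2509. Isg15 itself lay in a region of 8493 bp with no tag count. The chemokine gene Cxcl10 had the fewest, 345 tags over 2407 bp.

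Cytokine genes were marked widely but unequally, 18 of 21. Il15, a growth factor of killer cells, had 3898 tags over 6332 bp, Tgfb1 2951, Il6 2703, Osm 2294, Tnf 1578 and Il12b, the p40 chain of IL-12, 1190. The p35 chain gene Il12a had 217 tags, Il10 216 and Ifnb1, interferon beta, 30 over 735 bp. Csf3 and Il33 were unmarked, Csf3 with a marked gene within 5 kb, and Csf2, which encodes the GM-CSF supplied in the medium, was not named. Over the whole interleukin family 14 of 33 were marked, with Il2, Il5, Il21, Il22, Il31 and Il33 unmarked and 12 not named. Il2, Il5, Il21 and Il22 are made chiefly by lymphocytes.

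Chemokine genes split along similar lines. Of 37 ligands 15 were marked: Ccl22, which attracts regulatory T cells, had 3358 tags, Ccl5 2596, Ccl3 628, Ccl9 507, Cxcl2 414 and Cxcl3 379, and Ccl17 had 125. The lymph node chemokines Cxcl13, Ccl21a, Ccl21b and Ccl21c were unmarked, and 13 other ligands were not named. Of 16 receptors 7 were marked, among them Ccr7 with 3895 tags, Cxcr4 with 3397, Ccr1 with 1662, Ccr10 with 409 and Ccr4 with 65. Ccr2, Ccr3, Ccr6, Ccr9, Cxcr3 and Cxcr6 were unmarked. C-type lectins had 17 of 33 marked, from Clec2d at 6038 tags and Clec2i at 1894 to Clec7a, the beta-glucan receptor Dectin-1, at 807 and Clec2l at 34. NOD-like receptor genes had 6 of 22, among them the inflammasome sensors Nlrp3 with 1122 tags and Nlrc4 with 646, and 10 were not named. With regions at the saturated score alone, 7 interleukins, 4 chemokine ligands, 4 chemokine receptors, 10 C-type lectins and 3 NOD-like receptors counted.

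**Figure D3:**
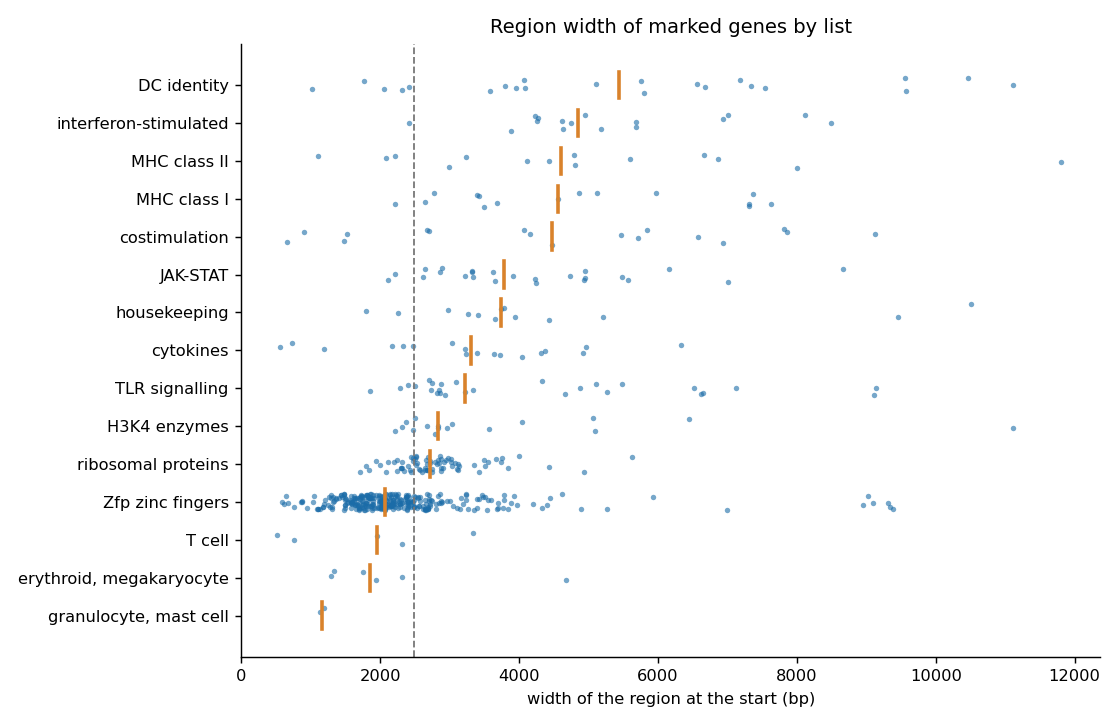
Width in bp of the region at the start of each marked gene (points) for 15 lists, with the list's median (orange bar) and the median of all 11493 marked genes (dashed line, 2484 bp). Among these 15 lists the medians of dendritic cell identity (5432 bp) and of interferon-stimulated genes (4846 bp) lie furthest right. Those of T cell and granulocyte genes lie left of the dashed line. The 7 marked chemokine receptor genes, not drawn, had a median of 5425 bp. Also not drawn were plasmacytoid dendritic cell genes (median 4776 bp), macrophage and monocyte genes (3840 bp) and blood progenitor genes (3607 bp).

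Of 14 housekeeping genes 13 were marked, with a median of 3743 bp and 1762 tags, and the last, Tbp, lay beside a marked start. Gapdh had 2913 tags over 4430 bp, and Rplp0 and Hprt had 630 and 411. Cytosolic ribosomal protein genes had 74 of 84 marked with a median of 2710 bp and 1346 tags, mitochondrial ribosomal genes 66 of 75 with 2134 bp and 969 tags, and proteasome genes 39 of 44 with 2604 bp and 1508 tags. The medians of all marked genes were 2484 bp and 989 tags. Of the members of these families that were not marked, 6, 8 and 2 lay beside a marked start, the others were not named and none was unmarked. Among ribosomal genes Rpl18 had the most tags, 3947, and among proteasome genes the germ-cell subunit Psma8 had the fewest, 63 over 1014 bp. Respiratory chain genes had 57 of 72 marked, RNA polymerase subunits 23 of 28, translation initiation factors 48 of 56, Rab GTPases 49 of 59, E2 ubiquitin enzymes 30 of 37 and clustered histone genes 42 of 67, with 19 more histone genes beside a marked start. Rab8b, a GTPase of vesicle traffic, had the widest region of its family, 10008 bp. Enzymes of H3K4 methylation had 17 of 18 marked. Kmt2d had 2995 tags, Kmt2a 1913, the demethylase gene Kdm5c 1908, Hcfc1 1902, Kmt2b 1723 and Setd1a 1711. Kdm5a counts as unmarked, with a marked gene within 5 kb.

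Genes named Zfp, most of which encode zinc finger factors, had 317 of 397 marked (79.8%) with a median of 2068 bp. Solute carrier genes had 209 of 375 (55.7%), close to the share of all genes. Slc15a3, a lysosomal carrier of peptides and muramyl peptides, led with 4741 tags, followed by the taurine carrier Slc6a6 with 4219, Slc3a2, the heavy chain of amino acid carriers, with 3428 and Slc43a2, another amino acid carrier, with 3228. Slc10a2, a carrier of bile acids in the gut, and Slc12a3, a salt carrier of the kidney, were unmarked.

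Of 39 Hox genes, which set position along the body axis, 8 were marked and 25 were not named. Among the marked were Hoxb4 with 1229 tags, Hoxa4 with 605, Hoxa3 with 319, Hoxa7 with 106 and Hoxc6 with 52, and Hoxb5, Hoxb6 and Hoxd12 were unmarked. Of 19 Sox genes 6 were marked, Sox4 with 1025 tags and Sox12 with 303, and the others had 43 to 89. No Pax gene of 9 was marked, and 7 of them had a named start. Of 44 Fox genes 18 were marked, with Foxo3 at 3048 tags, Foxo1 at 2266, Foxn2 at 1957 and Foxp1 at 1645. Wnt ligands had 7 of 19 (6 not named), with Wnt11 at 1262 tags, and Fgf ligands had 5 of 22 (10 not named), with Fgf11 at 320. Potassium channel genes had 27 of 94 (31 not named), led by Kcnk13 with 2639 tags and Kcna3 with 2362. Protocadherins had 11 of 69 (40 not named) with at most 311 tags at Pcdhgc3, and GABA-A receptor subunits 0 of 19 (16 not named). With regions at the saturated score alone, 3 Hox, 1 Sox, 1 Wnt, 6 potassium channel and 0 Fgf and protocadherin genes counted.

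In families of sensory, skin and gland tissues most members were not named, so that their state is undetermined. Olfactory receptors had 6 of 1106 marked (0.542%, exact 95% interval 0.199% to 1.18%), 72 had a named start and no region, and 1026 were not named. Olfr56 stood out with 2955 tags over 7325 bp, and that region is also the one at the start of Ifi47, an interferon-induced GTPase. The other 5 had 72 to 124 tags. Vomeronasal receptors of type 1 had 2 of 230, with 36 tags at Vmn1r90 and 23 at Vmn1r88, and those of type 2 had 1, or 0.813%. Of these receptors 216 of type 1 and 98 of type 2 were not named. Taste receptors of the Tas2r family had 0 of 35 (32 not named), beta-defensins 0 of 42 (37 not named), keratin-associated proteins 0 of 56 (54 not named), keratins 1 of 53 (42 not named), kallikreins 1 of 27 (Klk8, 83 tags) and Cyp2 enzymes 6 of 47. The marked vomeronasal type 2 gene, Vmn2r29 with 219 tags, and the marked keratin gene, Krt222 with 68 tags, lay in regions that overlapped an IgG region.

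**Figure D4:**
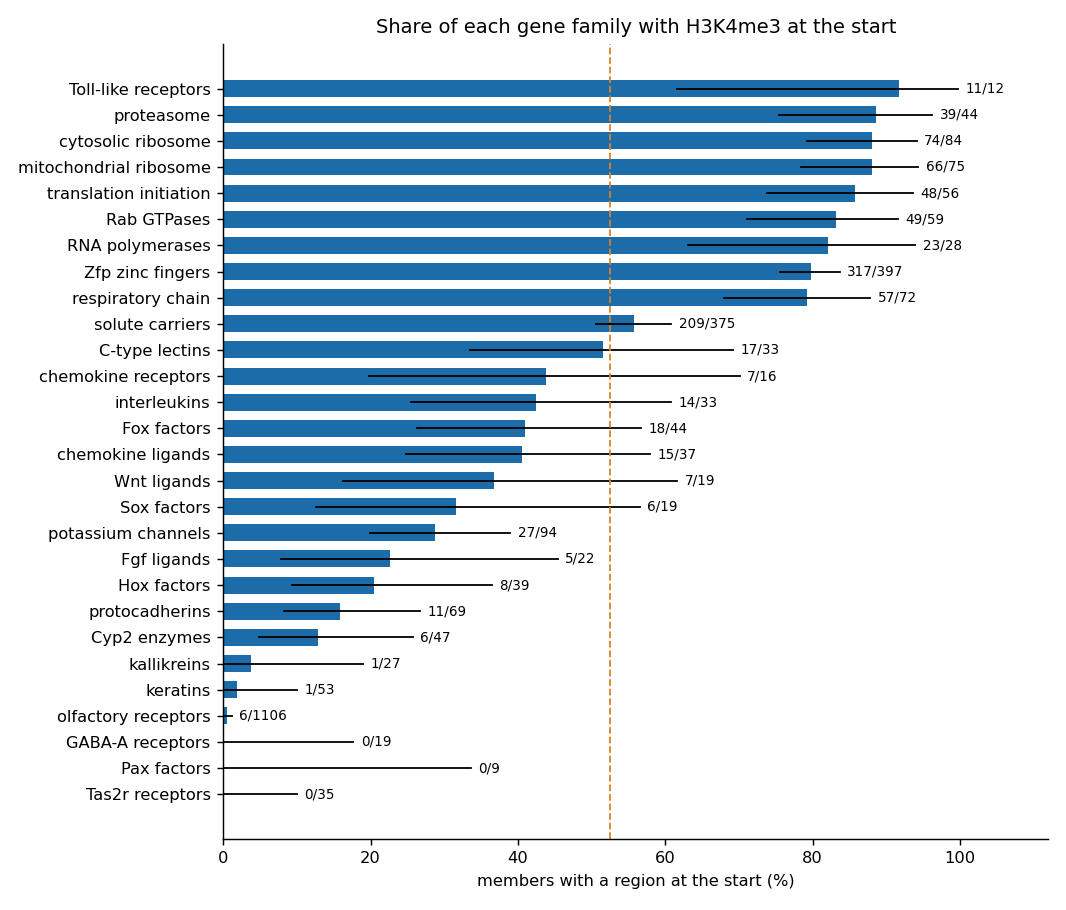
Percent of the members of 28 gene families with an H3K4me3 region within 1 kb of a named start (bars, with exact 95% intervals as black lines, and marked over all members as text). The dashed line marks the 52.5% of all protein-coding genes; the receptors, keratins and kallikreins at the bottom lie near 0, and most of their members are not named in any list.

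Promoter sequence separated marked genes from the rest. RefSeq gives exactly 1 promoter for 14731 of the genes, and only these were used. Whether the RefSeq start is the named start at which a gene was scored was not tested. CpG observed over expected, the number of CG divided by that expected from the C and G content, had a median of 0.779 over 7363 marked genes and 0.208 over 6700 unmarked or not named genes. Promoters with at least 0.6 and a GC content of at least 50% are called CpG-rich here, and they made up 72.1% of marked promoters and 12.8% of unmarked or not named ones. Of all 6569 CpG-rich promoters 80.8% were marked, against 25.1% of 8162 CpG-poor ones. These totals include genes not named, 545 CpG-rich and 4516 CpG-poor, beside 310 and 1329 unmarked ones. Part of the contrast thus lies in which genes are named. Among unmarked genes alone, 18.9% of the promoters were CpG-rich. The share climbed from 6.15% below an observed over expected of 0.1 through 44.3% at 0.4 to 0.5 and 74.4% at 0.6 to 0.7, and levelled off at 84.1% above 1.0. In the lowest class 1426 of 1805 genes were not named, and in the highest 56 of 1164. Among marked genes the width depended less on CpG, with medians between 2028 and 2816 bp over the 11 classes.

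**Figure D5:**
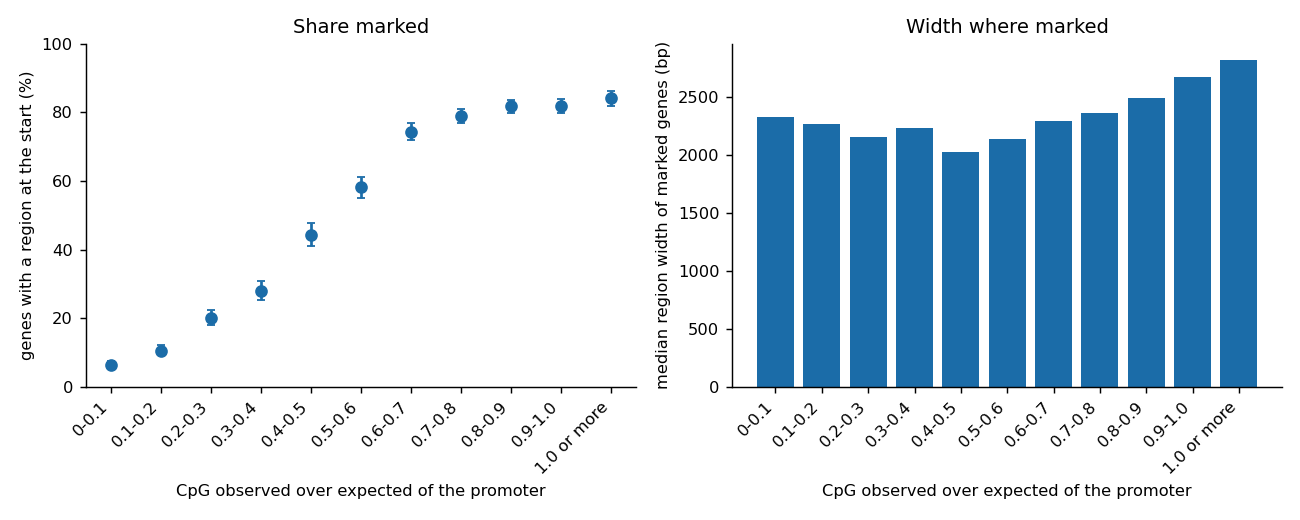
Left, percent of genes with a region at the start by CpG observed over expected of the promoter, with exact 95% intervals. The share is 6.15% in the lowest class and 84.1% in the highest. Genes not named stay in the totals of these shares. Right, median region width in bp of the marked genes in each class, between 2028 and 2816 bp.

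Short motifs were searched on both strands of the 300 bases. GGCGGG, the core of the Sp1 motif, was in 66.1% of marked promoters and 20.2% of unmarked or not named ones, and in 44.5% of all. TATAAA, the TATA box, was in 7.04% of marked promoters and 22.8% of unmarked or not named ones, and in 14.3% of all. CCAAT was about as frequent in marked as in unmarked or not named promoters (39.3% and 39.8%), as were GAGGAAGT, a PU.1-type motif (3.21% and 3.30%), and a pair of GAAA with any 2 bases between, an interferon response motif (3.29% and 3.79%). Among marked genes with regions of 3322 bp and more, GAGGAAGT was in 4.18% and the pair of GAAA in 4.87%, against 2.33% and 2.55% among those with regions of 1896 bp or less. Of the promoters printed above, those of Rel, Il4ra, Mpeg1, Pax5 and Olig2 held GGCGGG, that of Rel also GAGGAAGT, those of Mpeg1, H2-Eb1 and Olig2 held CCAAT and that of Olig2 also TATAAA. A match is only a run of letters and does not show that a factor binds.

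Some genes with a CpG-poor RefSeq promoter had a wide region at a named start. Below an observed over expected of 0.3, the widest were Traf1 (11936 bp), Adam8, a protease of leukocytes (10006 bp), Bcl2a1d and Bcl2a1b. Ms4a4c, of a family of membrane proteins, had 0 CG and 8626 bp. Pira1 and Pirb, paired immunoglobulin-like receptors, shared a region of 8492 bp, where near-identical copies make the counts uncertain. Cd80 had 3 CG and 7863 bp, Slfn2, a Schlafen protein of immune quiescence, 2 CG and 7607 bp, Csf2rb2, the IL-3 receptor beta chain, 3 CG and 7299 bp, and Ifit1 4 CG and 6932 bp. Lipa, a lysosomal lipase, had 7 CG and 8002 bp, Zfp710 4 CG and 6989 bp, Setd5 1 CG and 6742 bp and Tuba1c, an alpha-tubulin, 7 CG and 6547 bp. These genes were named for their width and sequence after the values were seen. The CG were counted at the RefSeq start, and whether that start lies under the region was not tested. Of the 6569 CpG-rich promoters, 310 belonged to unmarked genes and 545 to genes not named. By shared symbol stem, these made up 6 of the 9 CpG-rich Hox promoters, 7 of 8 Eph, 6 of 10 Wnt, 5 of 7 Nkx and 8 of 11 Col, against 17 of 87 Tmem and 13 of 128 Zfp, stems chosen after the counts were seen. The stem counts pool unmarked genes with genes not named, whose state is undetermined. They are to be read against the 310 plus 545 of all 6569 CpG-rich promoters. Of the other CpG-rich promoters, 403 belonged to genes beside a marked start and the rest, 80.8% of all 6569, were marked.

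Tag counts at marked genes were lower on the X chromosome than on the autosomes in these cells of female mice. Marked genes on the X had a median of 549.5 tags and 237.2 tags per kb, against 1006 tags and 388.2 tags per kb on the autosomes. Their median width differed less, 2190 bp on the X and 2498 bp on the autosomes. The single autosomes ranged only from 373.8 to 402.5 tags per kb. Of the X genes 37.1% were marked, against 53.9% of autosomal genes, and no region lay on the Y. Densities varied among X genes, with 659.5 tags per kb at Kdm6a, 482.6 at Eif2s3x, 471.7 at Kdm5c, 454.7 at Ddx3x, 232.7 at Irak1 and 182.6 at Hprt, genes named after their values were seen. Xist, the RNA that silences the inactive X, had a region of 4011 bp with 1486 tags over its start. The part of X inactivation in the lower counts was not tested.

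Regions near microRNA genes included those of several microRNAs known from immune cells. The list assigns a region within 1 kb of the hairpin start to 52 microRNA genes, and since a hairpin start is often not the start of the primary transcript, such a region may belong to the host transcript. Mir142, whose product is restricted to blood cells, had 4931 tags over 5593 bp at chr11:87567889-87573481. Mir21 had 4112 tags over 7521 bp, Mirlet7i 1892 over 4507 bp and Mir17, of the Mir17-92 cluster, 512 over 3289 bp. Mir146b and Mir155, both induced by Toll-like receptor signals, had regions of only 1207 bp and 573 bp with no tag count. The mature RNAs of these genes, from RefSeq, are shown with the seed (bases 2 to 8) in capitals, because the seed decides which mRNAs they pair with, and no 2 of these 6 share a seed.
miR-142a-3p: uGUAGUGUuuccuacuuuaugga
miR-21a-5p: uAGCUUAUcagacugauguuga
let-7i-5p: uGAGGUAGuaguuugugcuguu
miR-17-5p: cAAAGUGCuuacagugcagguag
miR-146b-5p: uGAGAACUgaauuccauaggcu
miR-155-5p: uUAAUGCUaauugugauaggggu

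Many genes drew more than their start region. Of 14122 symbols in the list, 4667 had 2 or more regions and 390 had 5 or more. Bcor, a partner of BCL6 in repression, had 18 regions, Chd7, a chromatin remodeller, 13, and Akap13 and Pde4d, an anchoring protein and an enzyme of cAMP signalling, 12 each. They were named after the counts were seen. These further regions were mostly narrow, as the classes of distance above show.

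Set beside the other lists, the diluent regions were largely found again in SAHA. Of the 22255 regions, 21059 (94.6%, exact 95% interval 94.3% to 94.9%) overlapped an H3K4me3 region of the SAHA library. Those that did had a median of 1795 bp and 457 tags, and those that did not had 672 bp and 30 tags. STAT3 regions of diluent cells overlapped 3.91% of the H3K4me3 regions, and the share rose with width, from 2.36% at 501 to 1000 bp to 9.68% at 4001 to 6000 bp and 21.9% over 10 kb. A wider region has more room for an overlap, and its part in that rise was not tested. Each comparison sets 1 library beside another and has no replicate check.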

How the data were processed

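The submitters' processing notes name BWA as the aligner and mm9 as the build. The authors ran MACS 1.4.0rc2 on each library alone, per the file headers, with no control, a p-value limit of 1e-05 and no more than 2 tags kept at a position. From those runs each deposited table holds a tag count and a fold (the ratio to background nearby) for every region. The authors' deposited lists against IgG, which carry no header, hold a score and 1 gene for every region, and the sources used here do not say how these lists were made. Depths stand in the report, and the 1 library per group leaves counting error as the only error that could be given.

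Regions were joined on chromosome, start and end. Genes were matched to RefSeq (GRCm38.p6, for names, neighbours and promoters only, never for positions of regions) by transcript accession where the list gave it and otherwise by symbol. Of 17024 symbols in the 4 lists 87.7% matched, 32 regions had symbols restored from spreadsheet dates, and 60 starts on another chromosome than the RefSeq gene were not used. A gene was marked when a region lay within 1 kb of a start named in any of the 4 lists. A list names a start only for a gene to which it assigned a region. Genes with no named start whose RefSeq start (either gene end where RefSeq gave no promoter) lay within 5 kb of a marked gene's were counted as beside a marked start. RefSeq starts and the starts of the lists need not be the same base. No p-value was computed, since each group had 1 library. Shares carry exact Clopper-Pearson 95% intervals and tag counts exact Poisson intervals. Overlaps of 1 bp counted.

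The members and gene lists were chosen with earlier results of these data known. Named genes were the 20 regions with most tags, the 20 widest, the 10 with fewest tags, the markers of cell types and, per list or family, up to 6 marked members with most tags and up to 6 unmarked ones in alphabetical order. Further examples, such as the lowest members of a list, were chosen after their values were seen. The 3739 regions assigned to clone or predicted names were counted and not named. Some genes are not reported here. Alternatives changed the window around a start, the regions used, the distance, the ranking and the merging of regions. Python 3.11.15 was used with pandas 2.3.3, numpy 2.4.6, scipy 1.17.1 and matplotlib 3.10.9, and the overlap and CpG steps were first tested on simulated data.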

Additional observations from a re-analysis of the deposited data

How the results depend on the processing

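The share of listed genes with a region at the start, 82% as reported, was 79.8% when the start itself had to be overlapped, 84.5% with 5 kb on each side, 65.9% with regions at the saturated score only and 78.1% with regions of at least 50 tags. The share of all protein-coding genes, 52.5% as reported, was 51.1%, 54.1%, 42.2% and 50.03% under the same alternatives. Leaving out regions that overlapped an IgG region moved neither beyond its counting interval. The share of regions within 1 kb of the assigned start, 57.2%, was 50.8% from the midpoint of the region and within its counting interval from the summit. Of the 20 regions with most tags, 6 were among the first 20 by tags per kb, 0 by fold enrichment and, in an alternative added after seeing the data, 0 by width, while 19 were found after regions closer than 1 kb were merged. The median width was 1831 bp after merging, against 1703 bp as called, and the median CpG observed over expected of marked minus unmarked or not named promoters was 0.565 with 5 kb and 0.486 over listed genes, against 0.571. Of 59 lists and families, 25 changed their count of marked members by over 1.5 times when regions at the saturated score alone counted, 10 with 5 kb on each side, 6 with at least 50 tags, 5 with the start itself overlapped, 3 with genes beside a marked start counted as marked and 2 without regions that overlapped an IgG region. All of these had 27 or fewer marked members as reported. The T cell list fell to 2 of 23 at the saturated score, against 5 in all regions, and the protocadherins reached 24 with genes beside a marked start, against 11 without them. No paired analysis was possible because each group had 1 library and no replicate numbers. A gene not named in the lists cannot be called unmarked, the widest regions have no tag count, and 1 library gives no spread between cultures.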
